A study of Mus musculus with 4 samples.

Results

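Broad open regions of 5 kb or more were described in ATAC-seq peak lists of mouse fetal lung. Peaks of 4 libraries on chromosomes 1 to 19 and X were merged where they overlapped or adjoined, and a merged region was kept when it held a peak of every library and was at least 5000 bp wide. Of 307423 merged regions, 66171 held a peak of every library, and 4390 of these met the width minimum, or 6.63% of the shared regions and 1.43% of all. They are called broad regions here, and the remaining 61781 are called other shared regions. The broad regions held 35.7 Mb, 25.6% of all bases in shared regions. Because the regions were chosen by the measured widths of these peaks, their widths and everything that follows from widths alone are given as a description.

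The study maps open chromatin in a series on a HOXA5-driven programme of lung development. All 4 libraries came from whole lung of wild-type (wt) embryos at E15.5, and 60000 nuclei were tagmented for each. There was 1 group, with no other genotype, time or tissue, and neither strain nor sex was given. Lungs were snap-frozen per the labels, but the deposited lists of replicates 2, 3 and 4 name their peaks frozen and that of replicate 1 names them fresh (in French), so the handling of replicate 1 is uncertain.

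In ATAC-seq the Tn5 transposase cuts DNA that is not wrapped in nucleosomes and tags it for sequencing, so a pile of cuts marks a promoter, an enhancer or another accessible element. A peak caller draws an interval around each pile and marks its highest point, the summit. Most accessible elements span about the length of a nucleosome or a few, and wide stretches can arise where several elements lie close together, where a long CpG island is kept open, or where reads from repeated sequence pile up. Whole lung mixes epithelium, mesenchyme, endothelium, smooth muscle, mesothelium and blood cells, and a wider or higher peak in bulk tissue cannot tell more cells with an open element from more opening per cell.

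Promoters are shown first, because 65.9% of the broad regions came within 1 kb of a protein-coding gene's end, either its start or its far end. A start of 2633 genes lay in a broad region. The sequence of a promoter was not used in choosing the regions. The first 4 promoters were chosen, with their values known, from the genes whose region held a single peak of at least 5 kb in every library, and the other 2 because they are poor in CpG. Each is the 250 bases before the gene start in RefSeq, build GRCm38.p6 (mm10), read 5′ to 3′ on the gene's strand, with CG dinucleotides in capitals.
Id2: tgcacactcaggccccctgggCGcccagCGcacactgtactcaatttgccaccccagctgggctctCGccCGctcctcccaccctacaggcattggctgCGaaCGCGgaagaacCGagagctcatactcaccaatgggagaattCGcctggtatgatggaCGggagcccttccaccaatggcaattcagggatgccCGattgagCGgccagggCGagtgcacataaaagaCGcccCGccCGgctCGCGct
Id3: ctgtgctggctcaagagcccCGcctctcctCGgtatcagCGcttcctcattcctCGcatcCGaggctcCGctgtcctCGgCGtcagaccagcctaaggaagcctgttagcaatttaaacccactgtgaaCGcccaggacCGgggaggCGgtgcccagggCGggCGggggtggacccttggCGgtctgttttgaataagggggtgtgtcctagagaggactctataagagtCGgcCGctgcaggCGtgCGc
Snai1: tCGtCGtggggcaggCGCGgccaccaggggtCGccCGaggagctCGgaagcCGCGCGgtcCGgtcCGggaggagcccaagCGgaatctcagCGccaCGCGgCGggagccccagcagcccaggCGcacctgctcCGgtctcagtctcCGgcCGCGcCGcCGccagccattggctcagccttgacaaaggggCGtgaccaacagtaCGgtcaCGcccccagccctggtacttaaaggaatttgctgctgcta
Tgif1: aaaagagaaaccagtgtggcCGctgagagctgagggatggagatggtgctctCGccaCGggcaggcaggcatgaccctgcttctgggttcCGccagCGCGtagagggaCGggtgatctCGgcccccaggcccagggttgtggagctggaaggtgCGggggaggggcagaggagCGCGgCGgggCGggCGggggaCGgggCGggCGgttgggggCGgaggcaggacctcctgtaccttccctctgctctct
Sfta2: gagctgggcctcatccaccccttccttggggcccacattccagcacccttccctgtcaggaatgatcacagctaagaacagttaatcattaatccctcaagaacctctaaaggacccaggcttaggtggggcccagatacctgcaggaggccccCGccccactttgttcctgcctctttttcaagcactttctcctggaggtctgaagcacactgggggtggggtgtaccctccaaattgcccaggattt
Islr: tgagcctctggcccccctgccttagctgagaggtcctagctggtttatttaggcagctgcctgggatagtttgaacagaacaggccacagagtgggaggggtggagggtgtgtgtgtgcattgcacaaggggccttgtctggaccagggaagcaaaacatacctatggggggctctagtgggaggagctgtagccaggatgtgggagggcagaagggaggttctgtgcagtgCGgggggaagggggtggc

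The Id2 stretch lies at chr12:25096093-25096342 (minus strand) and held 18 CG dinucleotides. Id2 encodes a helix-loop-helix protein that blocks DNA binding by bHLH factors and marks the distal lung epithelium. The Id3 stretch, at chr4:136143572-136143821 (plus strand), also held 18, and Id3 is another inhibitor of the same family. Snai1, a zinc-finger repressor known for epithelial-to-mesenchymal transition, had 27 in chr2:167537945-167538194 (plus strand). Tgif1, a homeodomain corepressor of TGF-beta signalling, had 18 in chr17:70851211-70851460 (minus strand). By contrast, 1 CG stood in the stretch of Sfta2, a surfactant-associated gene of lung, at chr17:35649458-35649707 (plus strand), and 1 in that of Islr, a gene of mesenchymal cells, at chr9:58158555-58158804 (minus strand). The strongest summit of every library fell inside each printed stretch, which held for only 899 of 3272 promoters in broad regions. In replicates 1 to 4 it lay 126, 128, 128 and 119 bases before the Id2 start, and 82, 84, 88 and 66 bases before the Sfta2 start. Around Islr the 4 summits were 128, 112, 87 and 152 bases before the start, a looser placing than the 36, 36, 43 and 31 bases at Tgif1. The region was 7516 bp wide at Id2, 18317 bp at Id3, 13575 bp at Snai1, 7087 bp at Tgif1, 7463 bp at Sfta2 and 9499 bp at Islr, so both CpG-rich and CpG-poor promoters stood in broad regions.

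Mature microRNAs whose genes lie in broad regions are shown with the seed, bases 2 to 8, in capitals. The first pair shares a region without any end of a protein-coding gene, the second pair shares a region in a gene-dense stretch, and the last lies in an intron of the endothelial gene Egfl7. All are from RefSeq, GRCm38.p6, 5′ to 3′.
let-7b-5p: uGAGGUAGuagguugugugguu
let-7c-5p: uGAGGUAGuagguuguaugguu
miR-141-3p: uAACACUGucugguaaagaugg
miR-200c-3p: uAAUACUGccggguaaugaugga
miR-126a-3p: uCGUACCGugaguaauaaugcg

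The let-7 pair, at chr15:85707325-85707346 and chr15:85706616-85706637 on the plus strand, carries 1 seed and differs at G17A, counted from 1 at the 5′ end with the let-7b base first. The let-7 family is known for restraining growth regulators such as Lin28 and Hmga2. The other pair, at chr6:124717917-124717938 and chr6:124718324-124718346 on the minus strand, belongs to the miR-200 family, which keeps epithelial identity by repressing Zeb1 and Zeb2, and its seeds differ at C4U with the miR-141 base first. miR-126a, at chr2:26591402-26591423 on the plus strand, is known for vessel integrity. The let-7 region was 15356 bp wide, the miR-200c and miR-141 region 14550 bp and the Egfl7 region 22860 bp.

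Widths ran over more than an order of magnitude. The median broad region was 6695 bp wide, with quartiles of 5643 and 9062 bp and a 90th percentile of 12564 bp. At least 10 kb was reached by 836 regions and at least 20 kb by 96, and the widest had 89339 bp. Other shared regions had a median of 1363 bp. Only 7 further merged regions of 5 kb or more lacked a peak of some library.

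The width lay mostly in replicates 2 to 4. A single peak of 5 kb or more was present in 92 broad regions in replicate 1, against 1491, 2015 and 2432 in replicates 2, 3 and 4. The widest peak per region had a median of 1537 bp in replicate 1, and of 4143, 4806 and 5224 bp in the other libraries. Peaks of replicate 1 covered a median of 34.2% of a region, against 83.6%, 90.2% and 92.1%. Replicate 1 thus had short separate peaks where the other libraries had long ones. Its list was also the shortest, with 134446 peaks against 186141, 211575 and 192776, and its median fold, the ratio of summit pileup to background, was 8.99 against 3.86, 3.90 and 3.73. The list lengths, the fold and the handling named in the peak names move together with the widths, and their part in the widths was not tested.

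The libraries shared this breadth in part. A single peak of 5 kb or more was found in all 4 libraries for 85 regions (1.94%), in 3 libraries for 985, in 2 for 739 and in 1 for 1257. In 1324 regions (30.2%) no library had such a peak, and the width came from joining shorter peaks of different libraries. Replicate 1 was the only library with such a peak in 2 regions. Bases covered by a peak of every library came to a median of 2345 bp per broad region, 32.9% of its width, against 440 bp and 35.0% for other shared regions. Such bases added up to 5 kb or more in 470 regions.

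**Figure D1:**
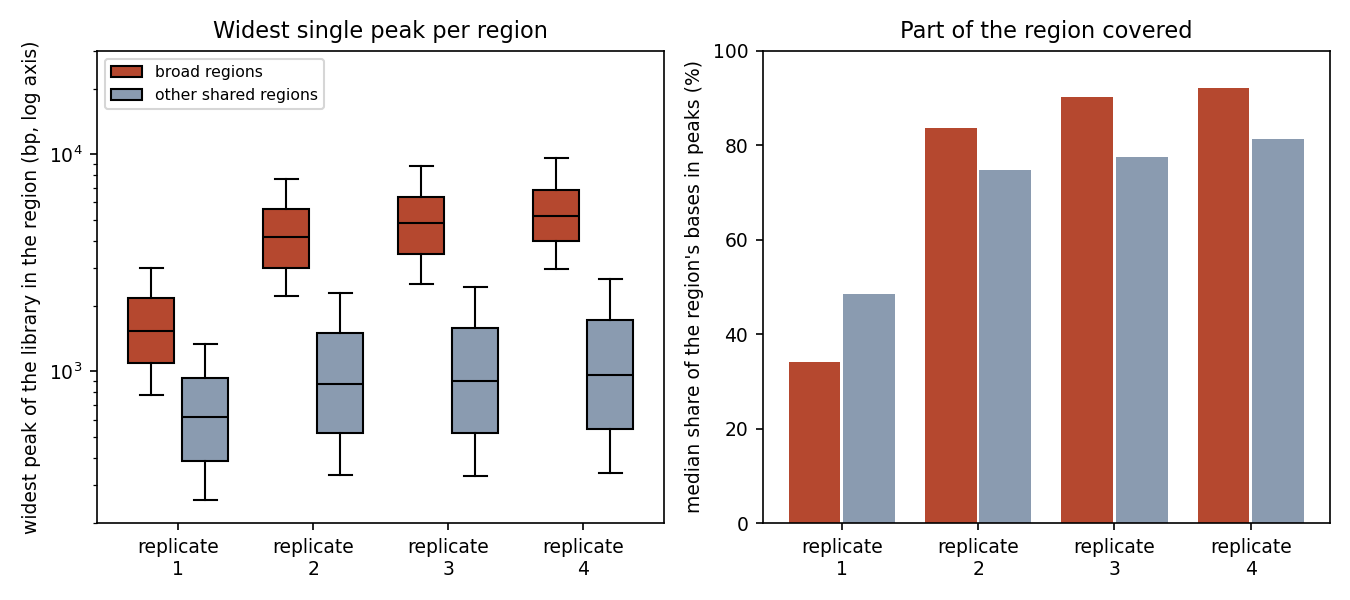
Left, the widest peak of each library in a region (bp, log axis; box from the lower to the upper quartile with the median, whiskers at the 10th and 90th percentiles), for 4390 broad and 61781 other shared regions; right, the median share of a region's bases inside peaks (%). Replicate 1 has shorter peaks in broad regions than the other 3 libraries, with a median of 1537 bp, and covers a median of 34.2% of the region.

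Several summits usually stood in a broad region. The number of peaks per region, each with 1 summit, had a median of 2, 3, 2 and 2 in replicates 1 to 4 (mean of the medians 2.25 ± 0.5, SD over 4 libraries), against 1 in every library for other shared regions. Over all libraries together a broad region held a median of 10 distinct summit positions and at most 47. Per kb, broad regions had fewer peaks than other shared regions, 0.347 ± 0.0455 against 0.954 ± 0.0329 (mean ± SD over 4 libraries), since a narrow region has at least 1 peak per library by the rule.

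Few of these summits were common to all libraries. When summits within 150 bp were joined into groups, a broad region had a median of 6 groups and other shared regions 2. Of the groups in broad regions, 14.3% held a summit of every library and 61.5% a summit of 1 library, against 32.9% and 40.6% in other shared regions. At least 1 group with all 4 libraries was present in 78.4% of broad regions, and 949 regions (21.6%) had none, against 20350 other shared regions (32.9%). At least 3 such groups were found in 20 broad regions and in 0.0% of other shared regions, whose highest number was 2. The highest number in a broad region was 4, in a 19050-bp region at chr11:115170709-115189758 that reaches ends of Slc9a3r1, Nat9 and Tmem104. The region with 47 summits, at chr10:81339096-81389298, spans 50203 bp over the ends of 6 genes, Gipc3, Hmg20b, Mfsd12, 4930404N11Rik, Fzr1 and Dohh, and had 3 groups with every library. A 32228-bp region at Hnrnpl, Ech1 and Lgals4, with 43 distinct summits, also had 3.

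Most broad regions lay at genes. An end of a protein-coding gene was within 1 kb of 2893 broad regions (65.9%, 95% exact binomial interval 64.5 to 67.3%), against 20.5% of other shared regions. A further 913 (20.8%) lay inside a gene and away from its ends, against 41.2%, and 584 (13.3%) lay outside genes, against 38.3%. Regions are not replicates, so the intervals describe counting error only. A wide interval meets a gene end more easily than a narrow one, so the position of a single base, the strongest summit, was compared as well. In a broad region that summit is picked from more peaks (mean per library 2.65 against 1.21), so width can still play a part. It is the summit of the peak with the highest fold. The strongest summit lay within 1 kb of a gene end in 45.9%, 46.9%, 46.7% and 46.5% of broad regions in replicates 1 to 4. The shares were 17.3%, 17.3%, 17.2% and 17.2% in other shared regions. The difference of 29.2 ± 0.499 percentage points (mean ± SD over 4 libraries) was positive in 4 of 4 libraries, and the shares of the 2 sets did not overlap. The exact two-sided sign-flip permutation test over libraries gave p = 0.13, the smallest that 4 libraries allow, so the design cannot pass 0.05. Every library was scored on the same regions, set from the peaks of all 4, so the 4 differences are not independent. Neither their common sign nor the test adds support, and the difference is a description. Counted at the gene starts in the promoter table, which has a strand, the shares were 44.8 ± 0.369% and 17.0 ± 0.0%.

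The increase with width was steep below 5 kb and shallow above it. The share of strongest summits at a gene end was 4.97% for regions of 0.5 to 1 kb, 12.4% for 1 to 2 kb, 36.5% for 2 to 5 kb, 46.0% for 5 to 10 kb and 48.3% for 10 kb or more (means over 4 libraries, with SDs of 0.0411, 0.0343, 0.14, 0.336 and 0.979). The strongest peak was also high within its own list. Its fold stood at a median percentile of 93.5, 96.1, 96.5 and 96.4 in broad regions in replicates 1 to 4, against 69.6, 79.4, 81.8 and 80.0 in other shared regions. The fold comes from the peaks that gave the widths, and a broad region offers more peaks to pick the strongest from. The difference of 17.9 ± 4.03 percentiles is therefore a description. The broad regions whose strongest peak in replicate 1 was below that list's median numbered 136, and their median percentile was 31.4 in replicate 1 and 81.4, 85.5 and 84.5 in the other libraries.

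**Figure D2:**
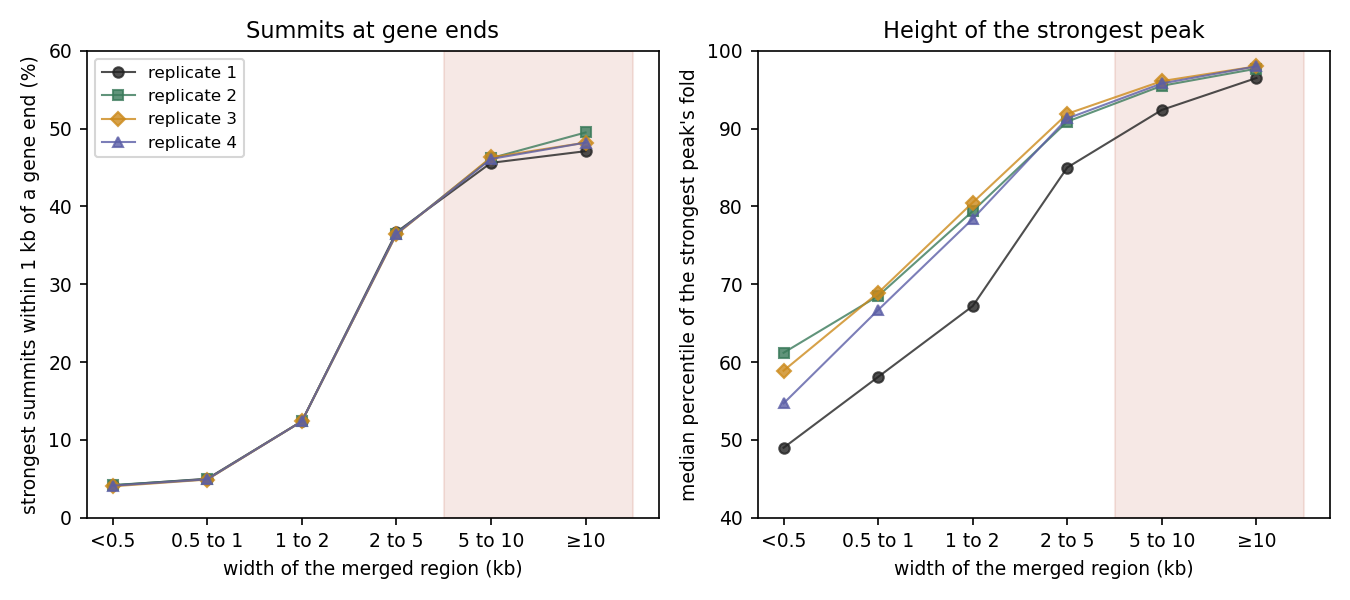
Share of strongest summits within 1 kb of a protein-coding gene end (left, %) and median percentile of the strongest peak's fold within its list (right), by width of the merged region (kb) and library; shading marks broad regions. In the left panel the 4 libraries lie on top of each other up to 5 kb and reach 48.3% on average at 10 kb or more; in the right panel replicate 1 runs below the others.

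Broad regions stood in gene-dense surroundings. Within 100 kb of the centre there was a median of 10 gene ends, against 4 for other shared regions, and 1380 broad regions (31.4%) reached at least 2 gene ends, against 3.6%. Per kb of region plus the 1-kb window on either side, broad regions met a mean of 0.122 gene ends and other shared regions 0.0572. These windows weigh more in the length of a narrow region, so the 2 values are not densities within the regions alone. Chromosomes differed, with 10.7% of shared regions broad on chromosome 7, 10% on chromosome 17 and 9.18% on chromosome 11, and 3.06% on chromosome 13 and 2.7% on the X chromosome. In 1927 cases (43.9%) another broad region lay within 10 kb. The windows of 1 Mb that held most were chr7:45000001-46000000 with 35, and chr10:80000001-81000000 and chr7:19000001-20000000 with 34 each. Broad regions took 35.7%, 46.8% and 30.4% of their bases, and the windows hold 67, 54 and 55 protein-coding genes.

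CpG content differed more between promoters inside and outside shared regions than between those in broad and narrower ones. A start outside shared regions can still lie in a peak of fewer than 4 libraries, and a gene can have several starts. Among promoters with the gene start in a broad region, 48.0% (1572 of 3272) had an observed over expected CpG ratio of 0.75 or more in the 300 bases around the start. The share was 50.7% for starts in narrower shared regions, 57.4% in the class of 2 to 5 kb, 2.62% where no shared region covered the start, and 34.0% over all 21045 promoters. Regions of 10 kb or more had 44.9%. CpG-rich promoters were therefore not more frequent in the widest regions than in those of 2 to 5 kb. The hexamer GGGCGG, the core of the box bound by Sp1-type factors, was found on either strand in 69.9% of promoters in broad regions. The share was 63.9% in narrower ones and 46.7% of all. It was 68.1% in the class of 2 to 5 kb and 66.8% at 10 kb or more, so broad regions differed little from those of 2 to 5 kb. In broad regions, narrower regions and all promoters, the pentamer CCAAT occurred in 36.0%, 37.8% and 38.5%. The ETS-type motif CCGGAAG occurred in 14.5%, 17.3% and 11.7%, and TATAAA in 6.39%, 6.33% and 12.7%. Motifs were read in the same 300 bases, with no removal of overlaps, and a match is no evidence of binding. In the stretches printed above, Tgif1 held 5 matches of GGGCGG and Id2 held 3 of CCAAT, while Islr held none of the 4 motifs.

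**Figure D3:**
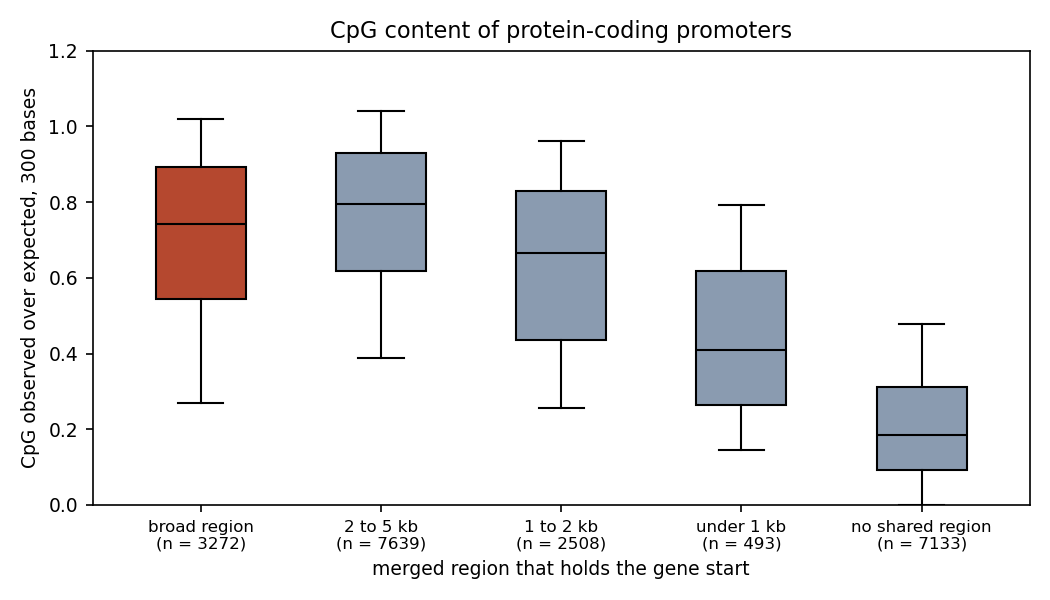
Observed over expected CpG in the 300 bases around protein-coding gene starts, by the merged region that holds the start (box from the lower to the upper quartile with the median, whiskers at the 10th and 90th percentiles). The median is 0.741 in broad regions, 0.794 in regions of 2 to 5 kb and 0.185 where no shared region covers the start.

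In 899 of the 3272 promoters in broad regions, the strongest summits of all 4 libraries lay in the 250 bases before the start. All promoters printed above are among them, so in this they do not stand for broad regions as a whole.

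A broad region lay within 1 kb of an annotated end of 3940 of 21631 protein-coding genes, 18.2%, and in several gene classes the share touched was above that. A region was counted for every gene whose end it reached, and the widest regions at the 3940 genes came to 2630 distinct regions. The lists were chosen with earlier results known, and their shares are a description with no test. Immediate early genes, which are switched on within minutes of a stimulus, came first, with 23 of 30 touched (76.7%) and a median widest region of 7127 bp, against 2222 bp over all genes. They include the AP-1 subunits Fos, Fosb, Jun, Junb and Jund, the zinc-finger factors Egr1 and Egr3, the mRNA-decay factor Zfp36 and the stress gene Atf3. By single peaks of 5 kb or more, 1, 15, 17 and 20 of the 30 genes were touched in replicates 1 to 4, against 0.333%, 7.89%, 10.4% and 11.7% of all genes. The list's share was above that of all genes in each library, in replicate 1 by a single gene. Immediate early genes are also known to respond to tissue handling, and the part of handling in these regions was not tested.

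Junb was the widest of the list. Its region at chr8:84963902-84992248 had 28347 bp and also reached Rnaseh2a, Prdx2 and Hook2. Its widest peak was 5287, 13315, 16464 and 18393 bp in replicates 1 to 4, and the strongest peak stood at percentiles of 97.0, 98.9, 99.2 and 99.0. Replicate 1 had the shortest of these peaks, and the percentiles were high in every library.

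Genes for the machinery of every cell were also frequent. Of the list of translation and other housekeeping genes 19 of 29 were touched (65.5%), among them the elongation factors Eef2 and Eef1a1, the actins Actb and Actg1, the tubulin Tubb5 and the glycolytic enzyme Gapdh. Ribosomal protein genes had 43 of 83 (51.8%) in 42 regions, led by Rplp2 and Rpl10a. The regions at Rplp2 and Rpl10a also reached other genes, among them Polr2l at Rplp2 and Tead3 at Rpl10a. Cytoskeleton and adhesion genes had 17 of 29 (58.6%), with Lmna, Ahnak, Zyx and Myh9 widest, and chromatin regulators had 16 of 28 (57.1%), with the demethylase Kdm6b and the deacetylase Hdac5 among them. In replicates 1 to 4, single peaks of 5 kb or more touched 0, 12, 10 and 12 of the housekeeping genes. For cytoskeleton and adhesion genes the numbers were 0, 9, 11 and 13. Ribosomal protein genes had 1, 28, 24 and 18, and chromatin regulators 2, 10, 10 and 11. In Eef2, which encodes the factor that moves the ribosome along mRNA, the 27328-bp region at chr10:81161055-81188382 spanned from Pias4 to Dapk3. Its libraries had 12, 8, 6 and 4 peaks, with widest ones of 1895, 13427, 19897 and 16367 bp. The strongest peak was at percentiles 99.1, 99.7, 99.6 and 99.0.

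The clustered histone genes, which make the bulk of histones in S phase, were touched in 31 of 58 cases (53.4%), but within 12 regions, since these short genes sit side by side. A single broad region can thus count for several of them. By single peaks of 5 kb or more the numbers were 2, 26, 9 and 16 of 58 in replicates 1 to 4, so replicates 2 to 4 also differed among themselves.

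Transcription factors stood above the background as a whole, 95 of 300 listed genes (31.7%) in 90 regions, with wide differences between families. GATA, NFI and TEAD factors had 8 of 16 (50%), among them Nfic, Nfix, Tead3 and the endodermal factor Gata6. KLF and SP factors had 12 of 26 (46.2%), SOX factors 7 of 19 (36.8%), forkhead factors 15 of 44 (34.1%), bHLH and ID factors 13 of 39 (33.3%), nuclear receptors 15 of 45 (33.3%) and T-box factors 5 of 16 (31.2%). Near the background were HOX genes with 9 of 39 (23.1%) in 5 regions, the TALE and other homeodomain group (Meis, Pbx, Irx, Pax and the like) with 6 of 30 (20%) and ETS factors with 5 of 26 (19.2%). By single peaks of 5 kb or more, 11, 48, 53 and 58 of the 300 listed factors were touched in replicates 1 to 4. These are 3.67%, 16.0%, 17.7% and 19.3%, against 0.333%, 7.89%, 10.4% and 11.7% of all genes.

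**Figure D4:**
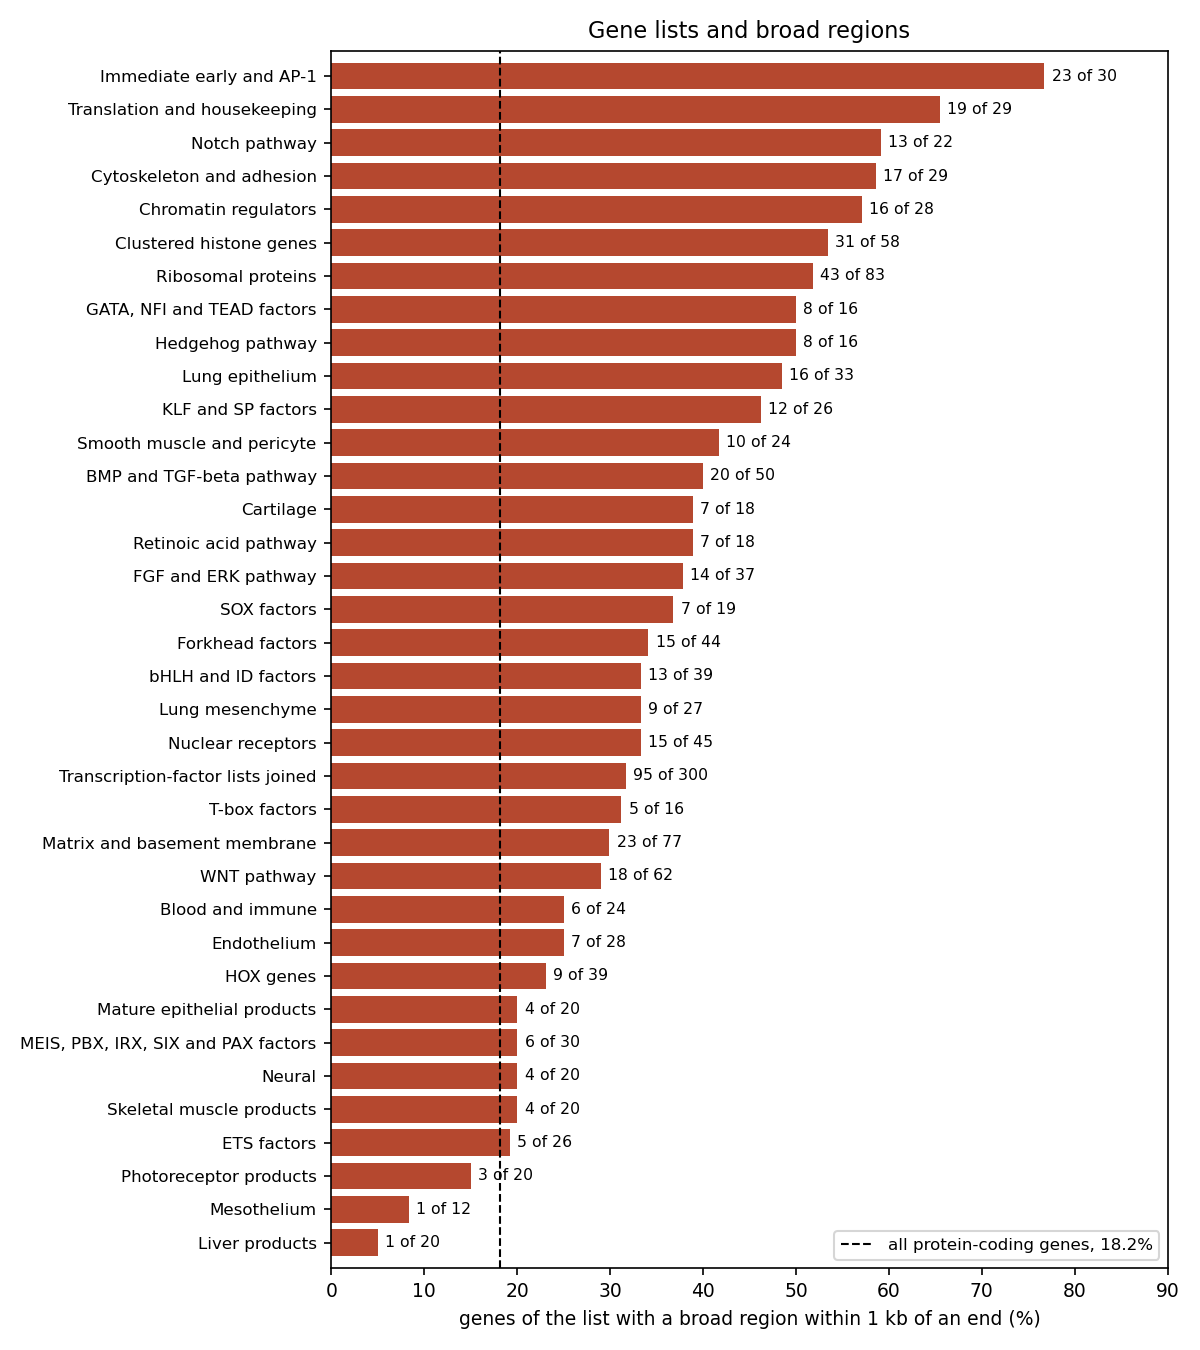
Share of the genes of each list with a broad region within 1 kb of an annotated end (%), with counts; the dashed line is the 18.2% of all protein-coding genes. Immediate early genes lead with 23 of 30 and liver products come last with 1 of 20.

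Nfic, a nuclear factor I protein known for tooth root formation in mice, had the widest region of any listed factor with a region to itself. It was 37155 bp wide, at chr10:81399223-81436377, and lay over the gene's end and body. Widest peaks were 2982, 18865, 36506 and 23445 bp, and the strongest peak stood at percentiles 97.1, 98.3, 98.9 and 99.1. Replicate 1 cut this region into 14 peaks, replicate 3 had it as 1 and replicates 2 and 4 as 3 each.

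Signalling genes were touched in part. The Notch pathway, which sets club, ciliated and neuroendocrine fates in the airway and vessel identity, had 13 of 22 (59.1%): the receptors Notch1, Notch3 and Notch4, the ligands Dll1, Dll4, Jag1 and Jag2, the fringe enzymes Lfng, Mfng and Rfng, and the targets Hes1, Hes5 and Nrarp. By single peaks of 5 kb or more, 0, 8, 7 and 8 of the 22 Notch genes were touched in replicates 1 to 4. Hedgehog, the signal from lung epithelium to mesenchyme, had 8 of 16 (50%), including the ligands Shh and Dhh, the receptor Ptch1, the co-receptor Gas1, the inhibitor Sufu and the effectors Gli1 and Gli2. BMP and TGF-beta genes had 20 of 50 (40%), including the ligands Bmp4 and Tgfb1, the receptor Acvrl1 and the inhibitory Smad6 and Smad7. The retinoic acid list had 7 of 18 (38.9%), the FGF and ERK list 14 of 37 (37.8%) and the WNT list 18 of 62 (29.0%), with Axin2, Wnt7b and Lrp5 among the last.

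Notch1 had 25736 bp at chr2:26485049-26510784, with widest peaks of 3018, 20382, 19158 and 10096 bp and percentiles of 97.5, 98.0, 98.8 and 98.7 in replicates 1 to 4. The receptor gene Rara, a retinoic acid sensor, had 28800 bp at chr11:98948348-98977147, with widest peaks of 3694, 15981, 24404 and 18977 bp. The region at Gli1 was lower. Its 14754-bp region at chr10:127319905-127334658, shared with Arhgap9, had no single peak of 5 kb in any library, with widest peaks of 1044, 4291, 4122 and 3630 bp. Its strongest peak stood at percentiles 49.0, 82.3, 85.5 and 86.0, and the bases covered by all libraries came to 1638 bp.

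Lists of lung cell types differed among themselves. Lung epithelium genes had 16 of 33 (48.5%), among them Nkx2-1, Foxa1, Foxa2, Foxp2, Sox9, Id2 and the keratins Krt8 and Krt18. Smooth muscle and pericyte genes had 10 of 24 (41.7%), lung mesenchyme 9 of 27 (33.3%) with Tbx2, Tbx3, Foxf1, Pdgfra and Pdgfrb, and endothelium 7 of 28 (25%) with Egfl7 and Nos3. Products of mature epithelium had 4 of 20 (20%), the surfactant gene Sftpc, the alveolar type 1 gene Ager, Napsa and Emp2. The region at Ager also reached Notch4 and Pbx2, and that at Sftpc also reached Bmp1. Blood and immune genes had 6 of 24 (25%), matrix and basement membrane genes 23 of 77 (29.9%), cartilage genes 7 of 18 (38.9%) and mesothelium 1 of 12 (8.33%), which was Rspo1. Among genes of other organs, liver products had 1 of 20 (5.0%), photoreceptor products 3 of 20 (15%), and neural and skeletal muscle genes 4 of 20 each (20%), the last 3 lists near the 18.2% of all genes. No shared region of any width touched 4 of the 33 lung epithelial and 0 of the 27 lung mesenchymal genes, against 16 of the 20 liver genes, 14 of the 20 photoreceptor genes, 8 of the 20 skeletal muscle genes, 3 of the 20 neural genes and 6586 of all 21631. Among other lung lists the number was 11 of 24 for blood and immune genes and 5 of 28 for endothelium. Most genes of the lung epithelial and mesenchymal lists thus had a shared region and most of the liver and photoreceptor lists had none, while the neural list was nearer to the lung lists.

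The lung factors fixed for naming were split by the 5-kb limit. Foxf1, the forkhead factor of lung mesenchyme, had 8364 bp at chr8:121078864-121087227, with widest peaks of 4122, 5845, 7879 and 6223 bp and percentiles of 96.4, 96.9, 96.3 and 97.3. Nkx2-1, the homeodomain factor that specifies lung epithelium, had 6097 bp at chr12:56533040-56539136, with widest peaks of 3550, 6097, 5342 and 3640 bp. Its strongest peak was at percentile 77.1 in replicate 1 and at 91.9, 92.9 and 93.5 in the others, so replicate 1 stood lower. Sox9, a factor of the epithelial tips and of cartilage, was just over the limit with 5104 bp at chr11:112780761-112785864, from a single peak of 4523, 4768, 4731 and 4856 bp in the 4 libraries. All libraries drew nearly the same interval there.

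Outside the set, the region at Hoxa5 and Hoxa6 had 1905 bp, that at Tbx4 3137 bp, that at Tbx5 4446 bp and that at Etv5 4690 bp. Hoxa5, the gene the series is named for, thus had a narrow region, although its strongest peak was high, at a mean percentile of 97.0 ± 0.272 (SD, n = 4). HOX genes in broad regions included Hoxa2 and Hoxa3 and, in the B cluster, Hoxb3 to Hoxb8. The 12673-bp region at Hoxb3, Hoxb5 and Hoxb6, chr11:96298338-96311010, had widest peaks of 2586, 7681, 3617 and 6332 bp and 2 summit groups of all libraries.

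Regions with a peak of 5 kb or more in every library passed the width minimum without joining. Their merged widths can still come from joining several peaks. Of these 85 regions, 54 reached a gene end, and the strongest peaks of the 54 were at median percentiles of 98.1, 98.6, 98.7 and 98.6. They include Tbx2, Id2, Id3, Snai1, Myc, Mycn, Junb, Brd2, Irs2, Tle3, Gadd45g, Foxo3, Wnt11 and Hic1. Tbx2, a T-box repressor of lung mesenchyme that keeps branching and proliferation going, had 24935 bp at chr11:85824652-85849586, also reaching the end of Bcas3. Its widest peaks were 18584, 10598, 13752 and 10553 bp, and here replicate 1 had the widest. Mycn, a bHLH factor of proliferating epithelial tips, had 1 peak per library, of 5222, 7531, 7472 and 7482 bp. Id3 had widest peaks of 7765, 14715, 13690 and 10018 bp, and Snai1 of 5664, 11377, 12843 and 12011 bp. At Id2 all 4 were alike, with 6560, 7357, 7161 and 7392 bp. The other 31 of the 85 regions lay away from gene ends, and their strongest peaks were at a median percentile of 77.9 in replicate 1, against 97.1, 97.6 and 97.9 in replicates 2 to 4.

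**Figure D5:**
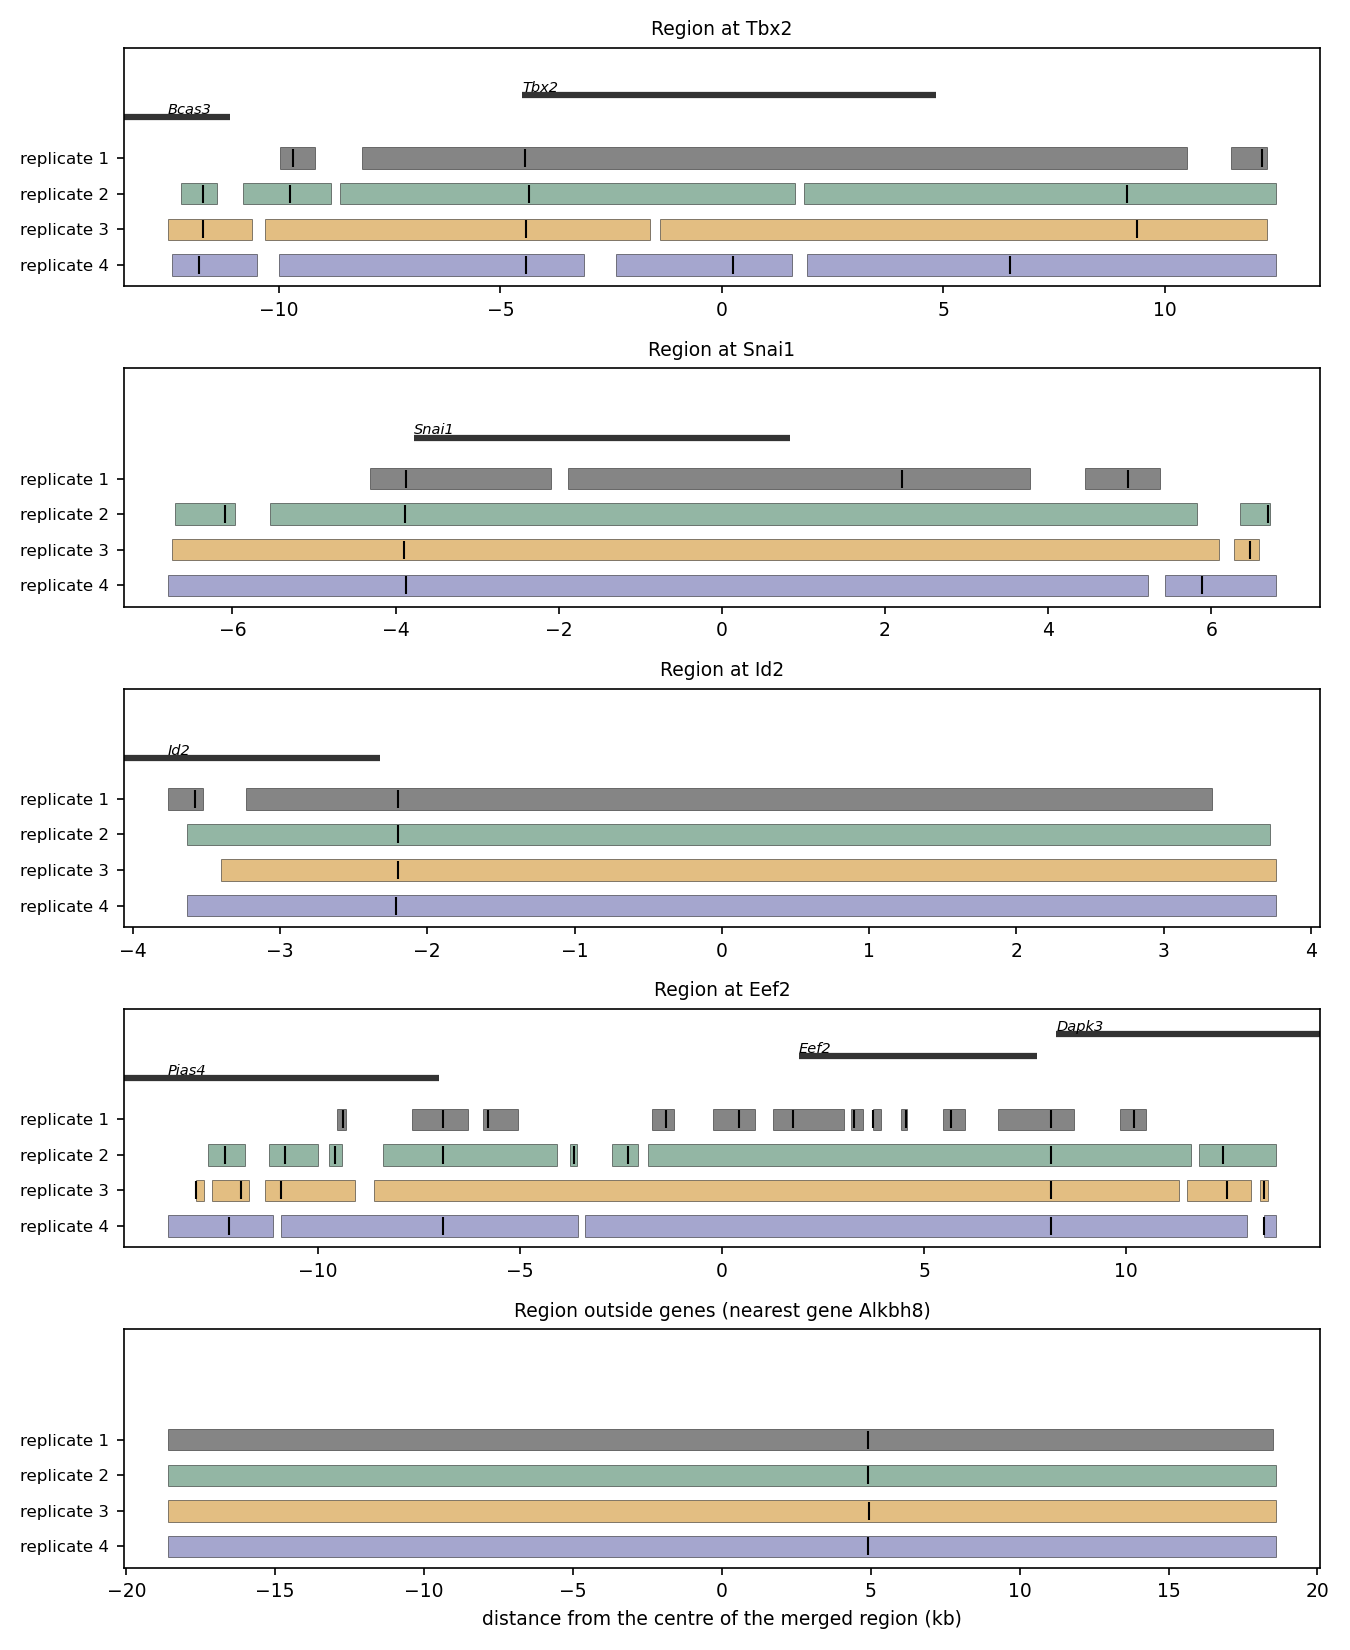
Peaks of the 4 libraries (bars) with their summits (ticks) in 5 broad regions, by distance from the centre of the merged region (kb), with protein-coding genes above. At Tbx2, Snai1 and Id2 every library has a peak of 5 kb or more; at Eef2 replicate 1 has 12 short peaks and replicate 4 has 4; in the region whose nearest gene is Alkbh8 a single peak spans the region in every library.

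A small set was shaped differently. In 16 regions a single peak spanned at least 90% of the region in every library. Only 2 of them reached a gene end, Gas8 and Zfp503, while 10 lay outside genes and 4 inside Flg2, Pfkp, Sik3 and S100a7l2. The median number of gene ends within 100 kb was 0, against 10 for the other 4374 broad regions. The strongest peak was at a median percentile of 78.6 in replicate 1 and of 96.8, 97.8 and 97.8 in replicates 2 to 4. The region at Gas8, chr8:123535480-123624818, was the widest of all with 89339 bp, and its widest peaks were 87097, 88780, 87550 and 88999 bp. The region at chr9:3000578-3037862, with 37285 bp and 297 kb from the nearest gene, Alkbh8, was near the start of the chromosome, and its strongest peak had folds of 618, 1193, 1011 and 1134 in replicates 1 to 4, with replicate 1 the lowest. No genome sequence was used, so the bases of these regions were not read.

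Other wide regions away from gene ends varied in shape. A 28832-bp region inside Gse1, chr8:120272846-120301677, had 13, 5, 8 and 5 peaks in replicates 1 to 4, with widest ones of 4732, 7184, 10461 and 14347 bp, and 3 summit groups of all libraries. A 28366-bp region inside Bahcc1 and a 26944-bp region inside Hspg2, the gene of the basement membrane proteoglycan perlecan, had 28 and 26 peaks over all libraries. A 30465-bp region outside genes and nearest to Apba2 had 6, 1, 1 and 5 peaks, with widest ones of 17440, 30427, 30233 and 17644 bp. Its strongest peak was at percentile 62.0 in replicate 1 and at 96.0, 96.5 and 94.2 in replicates 2 to 4. A 30237-bp region nearest to Asmt had 12, 13, 7 and 5 peaks, with percentiles of 68.5 in replicate 1 and of 94.1, 96.5 and 96.1 in the others. In both regions replicate 1 stood well below the other libraries. The 584 regions outside genes lay at a median of 19.6 kb from the nearest protein-coding gene, and 59 of them lay over 100 kb away.

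Some genes held many broad regions. With 10 kb added on either side, 1921 genes had at least 2, 521 at least 3 and 62 at least 5; long genes can hold more. Gse1, which encodes a subunit of a histone deacetylase and demethylase complex, had 19, and they came to 250 kb, parts outside the gene included, where the gene spans 353 kb. Peaks covered 85.1, 219, 228 and 237 kb of that in replicates 1 to 4. Tns1, the focal-adhesion gene tensin 1, had 13 regions of 116 kb in all, and Septin9, Nfix and Rxra had 7 each. At Nfix, another nuclear factor I gene, needed in brain development, the 7 regions came to 74.1 kb, parts outside the gene included, and the gene spans 96.5 kb. These genes were named after their values were seen.

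Matrix and endothelial genes gave further wide regions. Col1a1, the main collagen of fibroblasts, had 21931 bp at chr11:94924407-94946337, with widest peaks of 2488, 5188, 14017 and 7172 bp and percentiles of 99.4, 99.4, 99.7 and 99.6. Lama5, the laminin chain of epithelial basement membrane, had 24648 bp at chr2:180212586-180237233, with widest peaks of 2242, 18222, 18302 and 18015 bp. No summit group at Lama5 held all 4 libraries. Egfl7 had 14, 4, 1 and 3 peaks in replicates 1 to 4, with widest peaks of 1372, 10149, 22359 and 16722 bp.

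Noncoding genes were touched as well. A broad region lay within 1 kb of an end of 952 of 12697 lncRNA genes (7.5%), and 313 of them were in 269 regions that reached no end of a protein-coding gene. H19, an imprinted RNA of growing fetal tissue and host of Mir675, had a 14662-bp region at chr7:142567795-142582456, with widest peaks of 3338, 7969, 13459 and 14542 bp. Neat1, the RNA that builds paraspeckles, had 14388 bp with widest peaks of 6691, 11020, 11694 and 10956 bp, at 5 kb or more in every library. Unlike that at H19, the Neat1 region also reached an end of a protein-coding gene, Frmd8. Malat1, an abundant nuclear RNA, had 11269 bp with widest peaks of 2980, 10950, 7213 and 10718 bp.

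MicroRNA genes overlapped a broad region in 152 of 1228 cases (12.4%), with no window added, and 27 of these were in 23 regions without an end of a protein-coding gene. The let-7b and let-7c region printed above had widest peaks of 1823, 6092, 10489 and 7163 bp, and its strongest peak was at percentiles 80.0, 94.7, 95.1 and 94.5. The region of miR-200c and miR-141 had widest peaks of 1731, 6351, 14448 and 6409 bp at percentiles of 97.0, 99.1, 99.1 and 99.3. let-7e, with the same seed as let-7b and let-7c, also lay in a broad region. Mir22 had 8142 bp, with widest peaks of 3569, 5586, 7822 and 8142 bp, and the smooth muscle pair Mir143 and Mir145a shared 8525 bp with percentiles of 82.0, 95.3, 94.7 and 94.6.

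Values on both sides of the width limit overlapped. The 5 regions just inside it, of 5000 or 5001 bp, were nearest to Il5, Pisd, Rasl11b, Sall2 and Smndc1, and none of them was within 1 kb of a gene end. The 5 just outside, of 4997 to 4999 bp, were at or nearest to Dynlt1a, Rab5if, Ppp6r1 with Hspbp1, Map6 and Cpn2, and the first 3 reached a gene end. Mean percentiles over libraries were 69.7 to 98.3 just inside and 68.4 to 98.5 just outside.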

How the data were processed

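The deposited files were 1 narrow peak list per ATAC-seq library of wt lung at E15.5, 4 in all. The submitters' processing notes name MACS3 3.0.1, Bowtie2 2.5.2, SAMtools 1.18, Trim Galore, FastQC 0.12.1, deepTools, bedtools 2.31.0 and mm10 as the build. Their roles, parameters, any removal of duplicates or artefact-prone regions and any shift of reads for the Tn5 cut are not given in the sources used here. The deposited fold of a peak is the authors' ratio of the pileup at the summit over the local background, taking the column as MACS usually writes it, and it was compared between regions as a rank within its list, while folds printed as such are the authors' values. The deposited −log10 p and −log10 q belong to the peak summit, and the deposited score, derived from the q-value, was not used. The deposited summit offset gave summit positions. No read totals were used, so depth is unknown beyond the numbers of peaks, 134446 to 211575 per library on chromosomes 1 to 19 and X. Another 1302 to 1880 peaks per library lay on other sequences and were left out.

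Peaks were merged where they overlapped or adjoined. Gene ends came from RefSeq genes of GRCm38.p6, the assembly of mm10, with a window of 1 kb at both annotated ends because that table gives no strand, while promoters came from a table with strand. The promoter and microRNA tables were matched by gene ID and name. Python 3.11.15, pandas 2.3.3, NumPy 2.4.6 and SciPy 1.17.1 were used. The merging and the sign-flip test were tested on simulated data. The labels do not say whether replicates were separate embryos or litters, so SDs measure only how far these 4 samples differ, and part of that may be technical. The broad regions, the 35 gene lists and the named genes were chosen with earlier results of these data known. Named are genes nearest to the widest regions, to those with most summits or the highest percentile and to those beside the width limit, up to 4 per list with the widest region, and 7 fixed lung genes. Further list members are named to show what a list holds, and Id3, Snai1, Tgif1, Sfta2, Islr, the noncoding genes and the genes with many regions were chosen after their values were seen. Alternatives covered the width minimum, the peaks and libraries merged, the joining rule, the gene-end window and the CpG limit. Some genes that the naming rule covers are not reported here.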

Additional observations from a re-analysis of the deposited data

Results flagged for a closer look

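In 34 sets of 4 library values the lowest or highest value was compared with the range, and 7 stood apart by Dixon's criterion. Chance alone meets it in about 1 of 20 independent sets, but these sets are related measures of the same 4 lists. Replicate 1 was the outlying library in 6 of the 7. Over broad regions it had the lowest median percentile of the strongest peak, 93.5, against 96.1 to 96.5 in the others, and the highest median fold of that peak, 71.3 against 23.7 to 27.1. It also covered the least of a region, 34.2% against 83.6% to 92.1%. The median fold of its whole list was 8.99, against 3.73 to 3.90. Its widest peak was 5222 bp at Mycn, against 7472 to 7531 bp, and 2242 bp at Lama5, against 18015 to 18302 bp. In the remaining case replicate 2 had a median of 3 peaks per broad region, against 2 in each of the others. With the other values equal, any differing value would be flagged, so this case says little.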

How the results depend on the processing

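No paired analysis was possible because all 4 libraries form 1 group. With a width minimum of 4 kb there were 7199 broad regions, 62.1% of them at a gene end, and 43.0% of the listed transcription factors were touched, against 25.6% of all genes. With 6 kb there were 2838 regions, 69.2% and 24.0%, against 13.5% of all genes. The count depended most on how width was read: 470 regions remained when width was the bases covered by every library, with 73.0% at a gene end, a median of 3 summits per library, and 10% of listed factors touched, against 3.14% of all genes. A single peak of 5 kb in at least 1 library was held by 3066 regions, with 71.6% at a gene end and 25% of listed factors touched, against 14.8% of all genes. The share at a gene end was 64.4% with peaks of at most 10 kb and 68.6% with a window of 2.5 kb. A CpG limit of 0.6 gave 69.7% of promoters in broad regions, against 70.1% in narrower shared regions, 76.8% in those of 2 to 5 kb and 48.1% of all. Leaving out 1 library at a time gave 3070 to 4367 regions (3070 without replicate 4, 4367 without replicate 1), 66.0% to 68.9% at a gene end, 2 to 2.33 summits per library and 27.0% to 31.0% of listed factors, against 13.8% to 18.1% of all genes. Under all 13 alternatives tried for it, the difference in strongest summits at a gene end kept its sign, at 24.0 to 32.8 percentage points, and so did the difference in fold percentile, at 11.4 to 26.6. The immediate early list was touched in 23.3% to 90% of genes under the alternatives, lowest with width from bases covered by every library. Joining summits within 75 bp or 300 bp, chosen after seeing the data, gave 66.2% and 85.5% of regions with a summit group of all libraries. Leaving out the 16 flat regions, also chosen after seeing the data, gave 66.1% at a gene end. Depth was unknown, so no limit of detection could be given.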
